A study of Rattus rattus with 24 samples.

Results

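Cadherins, contactins, neurexins and neuroligins are cell surface proteins that hold cells to one another, and 47 of their genes were followed in rat oligodendrocyte precursor cells (OPCs) given T3, quetiapine or both. The members were all genes with a probe set of a single symbol on the array whose symbol began with Cdh and a number, Pcdh, Cntn and a number, Cntnap, Nrxn or Nlgn. This gave 47 of the 14217 genes with such a probe set, through 67 probe sets, and each gene was read from its probe set with the highest mean. They were 16 cadherins, 8 non-clustered and 9 clustered protocadherins, 6 contactins, 3 contactin-associated proteins, 2 neurexins and 3 neuroligins. Within this rule the genes were taken by symbol, and expression values entered only in picking 1 probe set for each. The rule itself was set with earlier results of these data known.

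The cells came from the cortex of Sprague Dawley pups in their early postnatal days, were selected with A2B5 microbeads, an antibody against a surface ganglioside of glial precursors, and were expanded with PDGF. They were then kept for 4 or 2 days in medium with the combination of T3 at 45 nM and quetiapine at 1 μM, with T3 alone, with quetiapine alone, or with the DMSO vehicle and no compound added (control). The B27 supplement of the medium held a low level of T3, as the study states, so neither control nor quetiapine cultures were free of the hormone. T3 is the active thyroid hormone and quetiapine an atypical antipsychotic. Each of 3 biological replicates supplied 1 array to each of the 8 groups, 24 arrays in all. The sample labels do not say whether these were separate preparations of cells.

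Classical cadherins bind like cadherins on the next cell through calcium-dependent outer domains, and inside the cell they hold catenins and, through them, actin. Protocadherins share these outer domains but lack the catenin tail. The clustered genes lie side by side and give each neuron its own set, while the non-clustered ones are transcribed singly. Contactins are immunoglobulin proteins on a lipid anchor. At the paranode, beside the node of Ranvier, Cntn1 and the contactin-associated protein Cntnap1 on the axon bind neurofascin on the myelin loop. In oligodendrocytes Cntn1 binds the phosphatase Ptprz1. Neurexins, known from nerve endings, bind neuroligins across the synaptic cleft, and both families are also transcribed in glia.

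Expression was the deposited log2 value of a probe set. Arrays had medians of 6.43 to 6.51. At each day groups were compared with limma across 31042 probe sets, over which the p-values were adjusted, and a gene was counted as higher or lower at an adjusted p under 0.05. Each replicate went through every condition, so a second fit was blocked by replicate ("with the block"). Calls it changes against control or between quetiapine and T3 are given with both p-values, those of other comparisons as counts. The signal of a probe set depends on its probes, so levels are compared between groups and not between genes. Of the 47 genes, 25 had a mean signal under the median of all probe sets (6.48) and 11 a mean under 5.

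Transcripts of OPCs, oligodendrocytes and astrocytes were all measured at high signal. The precursor receptor Pdgfra ran from 11.21 to 12.70 over the 24 arrays, and the astrocyte filament Gfap from 12.65 to 13.77. At day 4 the mean of 11 mature oligodendrocyte markers was 11.89 to 12.62 with the combination, 11.48 to 12.23 with T3, 11.31 to 11.90 with quetiapine and 10.00 to 10.30 in control, the ranges being over 3 arrays. The mean of 8 astrocyte markers was 9.91 to 10.58, 10.58 to 11.40, 10.02 to 11.01 and 10.98 to 11.51 in the same order, so that no combination array reached the control arrays. By gene 1 of the 8 was higher and 4 lower with the combination, and 1 was higher and 1 lower with T3. The mean of 5 OPC markers was 9.73 to 10.23, 9.93 to 10.58, 10.19 to 10.75 and 10.56 to 11.28. The mean of 13 neuronal markers at day 4 was 7.47 to 7.66 with the combination, 7.61 to 7.93 with T3, 7.55 to 7.75 with quetiapine and 7.72 to 8.05 in control. The combination arrays lay below control again, and by gene 3 of the 13 were higher and 3 lower with the combination. The mean of 12 vascular and fibroblast markers was 5.10 to 5.19 with the combination, 5.34 to 5.43 with T3, 5.24 to 5.33 with quetiapine and 5.43 to 5.65 in control, so that all treated arrays were below control, those of T3 only just. Of these 12, Col1a1 was higher and Tagln and Pdgfrb, of smooth muscle and pericytes, were lower with the combination, Tagln by 3.35 and Pdgfrb by 1.44 on the log2 scale (adjusted p = 1.28e-05 and 0.0265 from limma). The mean of 5 Schwann cell markers was 7.73 to 8.34 with the combination, 7.93 to 7.98 with T3, 7.65 to 8.21 with quetiapine and 7.62 to 7.83 in control. By gene 1 of the 5 was higher and 1 lower with the combination. Ngfr had a group mean of 6.81 with the combination and 4.27 in control, and Pmp22 10.23 and 10.89. The mean of 9 microglial markers, whose groups overlapped, was 5.09 to 6.33 over both days. In these bulk cultures fewer cells of a type and less RNA per cell cannot be told apart. The part of cell types in the changes below was not tested.

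At day 4 the genes of the set moved in both directions. With the combination 17 of the 47 genes were called (36.2%), against 35.1% of all genes. Of these 5 were higher and 12 lower, where 15.2% of all genes were higher and 20% lower. With T3 8 were called (17% against 14.7% of all genes), 3 higher and 5 lower, against 6.58% and 8.08% of all genes. With quetiapine 5 were called (10.6% against 7.25%), 4 higher and 1 lower, against 4.21% and 3.04%. These shares lay near those of all genes. The median log2 change of the 47 was -0.087 with the combination, -0.039 with T3 and -0.072 with quetiapine, and the medians of all genes were -0.0092, -0.024 and -0.015. The 3 comparisons share the control arrays. Of the 17 calls with the combination, 11 were kept whichever array was left out, of the 8 with T3 3 were kept, and of the 5 with quetiapine 2. With the block 21 genes were called with the combination, where 47.6% of all genes were, 12 with T3 (30.1% of all genes) and 12 with quetiapine (21.5%). The 3′ minus 5′ signal of Actb, which grows as RNA is degraded, was 0.704 to 0.768 on the log2 scale with the combination, 0.674 to 0.766 with T3, 0.601 to 0.723 with quetiapine and 0.643 to 0.665 in control at day 4, and 0.581 to 0.585 with the combination at day 2. All combination arrays of day 4 were above their control arrays, and the part of this in the calls was not tested.

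**Figure D1:**
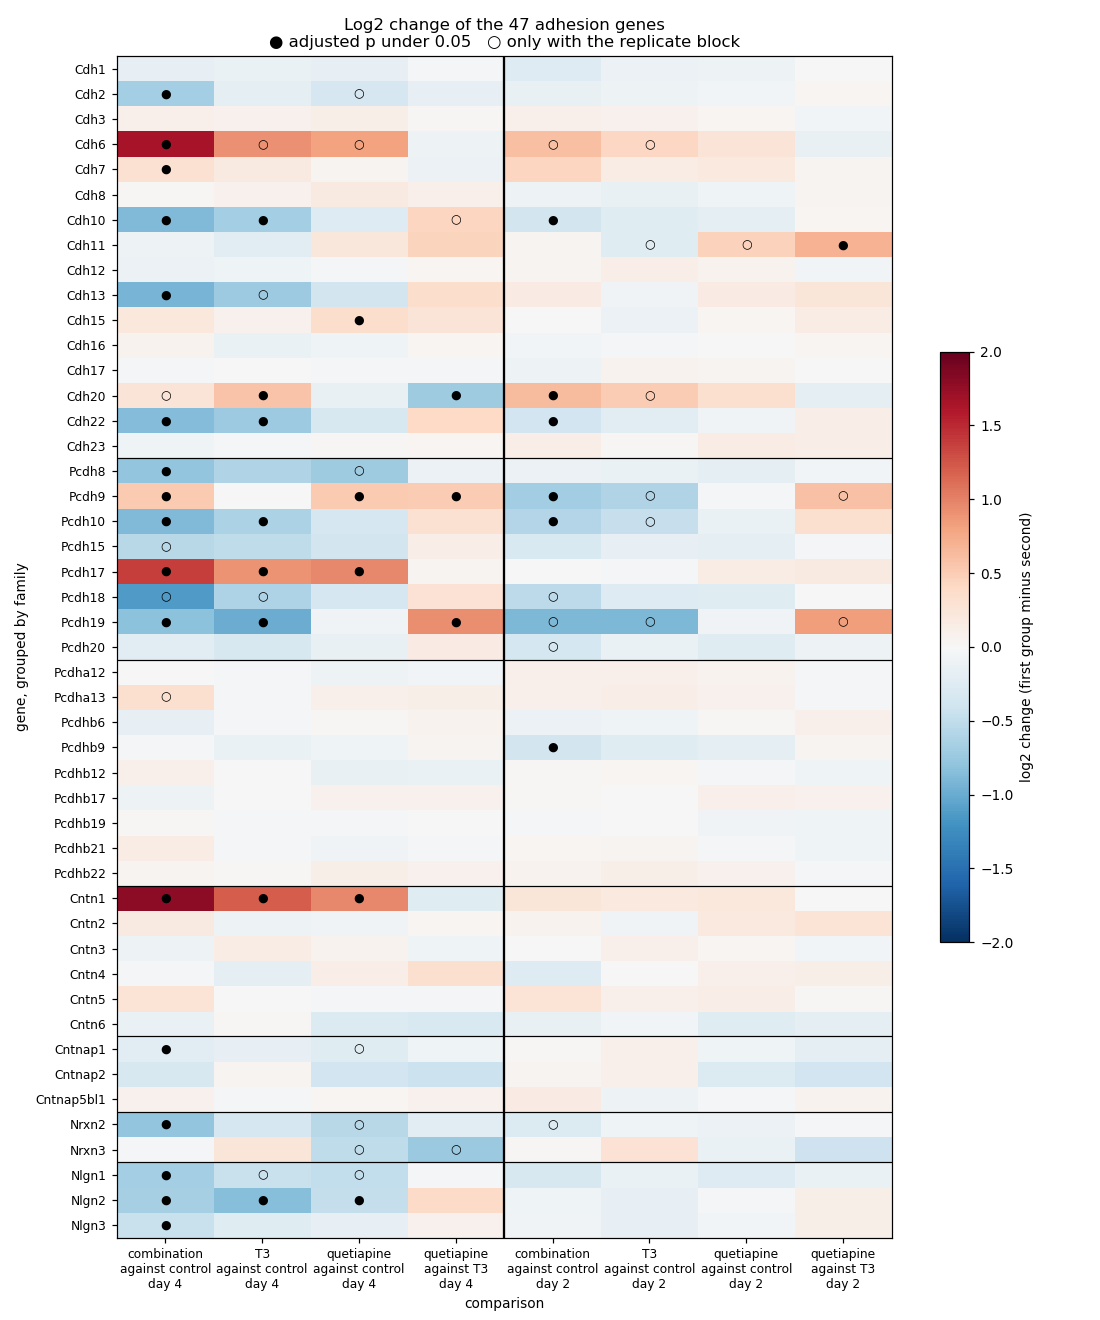
Log2 change of each of the 47 genes (rows, by family) in 8 comparisons (columns, day 4 left of day 2). Red is higher and blue lower in the group named first, a filled dot marks an adjusted p under 0.05 in limma and an open dot one reached only with the replicate block. Cntn1, Pcdh17 and Cdh6 stand out in red at day 4, and the clustered protocadherins are mostly pale.

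Cntn1, Pcdh17 and Cdh6 had the largest rises. Cntn1 (1387385_at), the contactin of the paranode, read 10.99, 11.22 and 11.04 in the combination arrays of day 4 (replicates 1, 2 and 3), 10.68, 10.50 and 10.33 with T3, 10.77, 10.05 and 9.98 with quetiapine and 9.69, 9.04 and 9.16 in control. Every treated array lay above every control array. The log2 change was 1.78 with the combination (standard error 0.214, adjusted p = 0.00014 from limma), a 3.44-fold rise, 1.21 with T3 (adjusted p = 0.00507) and 0.97 with quetiapine (adjusted p = 0.0241). The quetiapine arrays were uneven, replicate 1 standing highest, and this call was lost without quetiapine replicate 1 or control replicate 2 or 3 (adjusted p = 0.061 to 0.0945). The other 5 contactins did not pass at day 4 in any comparison with control, in either fit.

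Pcdh17 (1374546_at), a non-clustered protocadherin known in the brain from growing axons and synapses, rose with every treatment. Its values at day 4 were 11.14, 11.31 and 11.41 with the combination, 10.86, 10.77 and 10.78 with T3, 10.85, 10.73 and 10.99 with quetiapine and 10.07, 9.92 and 9.70 in control. The arrays of each group lay close together, the combination above both single compounds and these above control. The log2 changes were 1.38 (standard error 0.109, adjusted p = 8.84e-06), 0.90 (adjusted p = 0.000527) and 0.96 (adjusted p = 0.000656), none of them lost whichever array was left out. The other probe sets of the gene, 1384509_s_at and 1393454_at, gave 1.49 and 1.67 with the combination. Between the single compounds the difference was 0.056 (quetiapine minus T3, 95% interval -0.18 to 0.30, adjusted p = 0.869).

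Cdh6 (1370657_at), a type II classical cadherin known from kidney, had 8.27, 7.80 and 7.11 with the combination at day 4, 7.45, 6.91 and 6.58 with T3, 7.32, 6.76 and 6.56 with quetiapine and 6.06, 5.82 and 6.34 in control. With each treatment replicate 1 was the highest and replicate 3 the lowest, and all treated arrays were above control. With the combination Cdh6 rose by 1.65, with a standard error of 0.306 (adjusted p = 0.00211 in limma). The changes of 0.91 with T3 and 0.81 with quetiapine passed only with the block (adjusted p = 0.0836 and 0.162, and 0.0124 and 0.0287 with it).

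Smaller rises at low signal were called for Cdh7 and Cdh15. Cdh7 (1397177_at), a type II cadherin, read 4.48, 4.12 and 4.13 with the combination, 4.12, 4.01 and 4.21 with T3, 4.00, 3.97 and 4.01 with quetiapine and 3.86, 3.96 and 3.99 in control at day 4. With the combination it rose by 0.31 on the log2 scale (adjusted p = 0.0386). The call was lost without combination replicate 1, without quetiapine replicate 2 or 3 or without any control replicate (adjusted p = 0.0533 to 0.116). Cdh15 (1383985_at), the cadherin of skeletal muscle, had 5.81, 5.83 and 5.76 with the combination, 5.58, 5.80 and 5.64 with T3, 5.85, 5.86 and 6.08 with quetiapine and 5.64, 5.64 and 5.48 in control. Its change with quetiapine was 0.34 (adjusted p = 0.0468, and 0.0503 to 0.168 without each of the 12 arrays of that day in turn). The called groups did not overlap control for either gene.

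**Figure D2:**
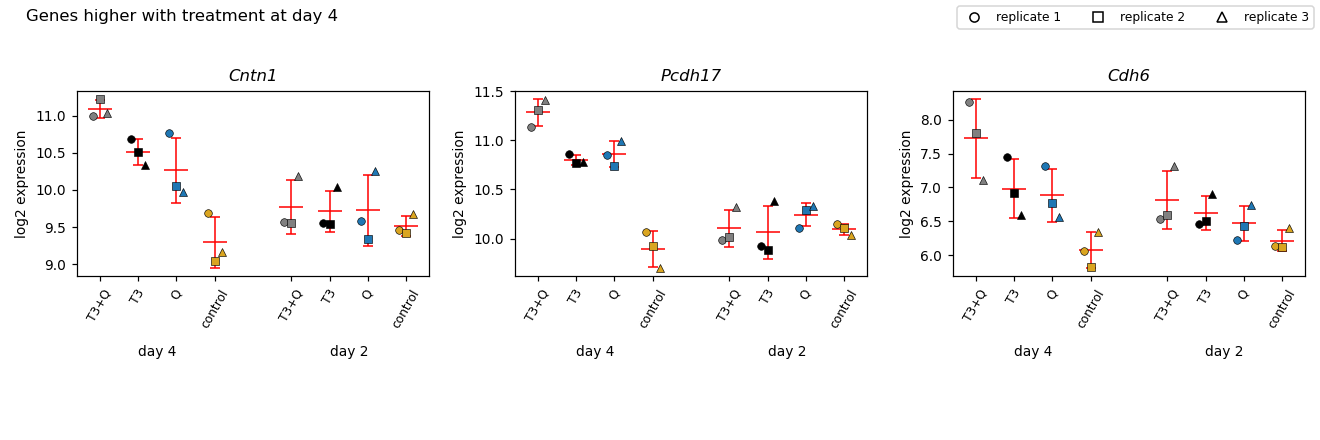
Log2 expression of Cntn1, Pcdh17 and Cdh6 in each array, by treatment (T3+Q, the combination; Q, quetiapine) and day. Points are arrays with a shape for each replicate, and red bars show the mean and SD of 3 arrays. At day 4 all combination, T3 and quetiapine arrays lie above the control arrays for all 3 genes.

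Of the 16 cadherins, 4 fell with the combination at day 4 (25% against 20% of all genes), and 2 of these also with T3 (12.5% against 8.08%). Cdh2 (1368642_at), N-cadherin, the classical cadherin of neural tissue, had 10.42, 9.99 and 10.23 with the combination, 10.74, 10.58 and 10.80 with T3, 10.62, 10.47 and 10.56 with quetiapine and 10.86, 10.74 and 11.08 in control. Only the combination fell below control by the test, by 0.68 on the log2 scale (standard error 0.121, adjusted p = 0.00165 from limma). With quetiapine the change was -0.34 (adjusted p = 0.136, 0.0198 with the block), and a second bright probe set, 1387259_at, gave -0.49 (adjusted p = 0.0174). With T3 it was -0.18 (adjusted p = 0.399).

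Cdh10 (1380317_at), a type II cadherin of the brain, read 8.89, 8.20 and 8.46 with the combination, 9.02, 8.54 and 8.59 with T3, 9.20, 9.07 and 9.16 with quetiapine and 9.53, 9.36 and 9.32 in control. It fell by 0.89 with the combination (standard error 0.168, adjusted p = 0.00241 from limma) and by 0.68 with T3 (adjusted p = 0.0236, and 0.0512 to 0.101 without T3 replicate 2 or 3 or any control replicate). The quetiapine arrays lay between those of T3 and control, with a change of -0.26 (adjusted p = 0.44). Cdh22 (1388045_a_at), another type II cadherin, had 6.74, 6.05 and 6.52 with the combination, 6.56, 6.74 and 6.46 with T3, 6.64, 7.12 and 7.21 with quetiapine and 7.25, 7.42 and 7.27 in control. It fell by 0.87 with the combination (adjusted p = 0.00426) and by 0.72 with T3 (adjusted p = 0.0266, and 0.0548 to 0.0907 without any T3 or control replicate). The quetiapine arrays of Cdh22 were split, replicate 1 among the T3 values and the others just below control. Its second probe set, 1368887_at, had a low mean signal of 4.76 and differed less. It read 4.68, 4.75 and 4.71 with the combination, 4.47, 4.61 and 4.63 with T3, 4.79, 4.84 and 4.76 with quetiapine and 4.83, 5.06 and 4.84 in control.

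Cdh13 (1375719_s_at), T-cadherin, has a lipid anchor in place of the inner tail and binds adiponectin and low density lipoprotein. Its values were 9.18, 8.15 and 8.43 with the combination, 8.90, 8.71 and 8.76 with T3, 8.85, 9.32 and 9.26 with quetiapine and 9.45, 9.50 and 9.58 in control. With the combination Cdh13 fell by 0.92, with a standard error of 0.217 (adjusted p = 0.008 in limma), and the changes were -0.86 and -0.97 for its other probe sets. All T3 arrays were below control too, with a change of -0.72 (adjusted p = 0.0544, 0.0352 with the block).

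Among the non-clustered protocadherins Pcdh10, Pcdh8 and Pcdh19 fell with the combination at day 4 (37.5% of the 8 against 20% of all genes). Pcdh10 (1393868_at), known from outgrowing axons, had 6.72, 6.49 and 6.15 with the combination, 6.78, 6.61 and 6.69 with T3, 7.14, 7.05 and 6.82 with quetiapine and 7.22, 7.28 and 7.50 in control. It fell by 0.88 with the combination (standard error 0.141, adjusted p = 0.000894 from limma) and by 0.64 with T3 (adjusted p = 0.0149, and 0.0616 to 0.0654 without T3 replicate 2 or control replicate 3). With quetiapine all 3 arrays were below control, but the change of -0.33 did not pass (adjusted p = 0.219). Pcdh8 (1368956_at), a protocadherin that neuronal activity induces in the hippocampus, read 7.50, 7.16 and 7.29 with the combination, 7.50, 7.39 and 7.64 with T3, 6.89, 7.58 and 7.70 with quetiapine and 7.80, 7.85 and 8.66 in control. Its fall of 0.79 with the combination (adjusted p = 0.0318) was not called without combination replicate 2 or 3 or control replicate 3 (adjusted p = 0.0779 to 0.113), and control replicate 3 stood above the other control arrays. With quetiapine the change of -0.71 passed with the block only (adjusted p = 0.124, 0.0365 with it). Pcdh19 is described with the compounds below.

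Pcdh18 and Pcdh15 passed with the block only. Pcdh18 (1384824_at) differed by replicate more than any other member. At day 4 it had 5.44, 6.05 and 6.42 in the combination arrays, 5.76, 6.35 and 7.33 with T3, 6.24, 6.55 and 7.50 with quetiapine and 6.40, 6.79 and 8.11 in control. The groups overlapped, yet within each replicate the combination and T3 arrays were below the control array. The changes of -1.13 with the combination and -0.62 with T3 had adjusted p = 0.123 and 0.516 from limma, and 0.000175 and 0.0127 with the block. Pcdh15 (1378408_at), which forms the tip link of inner ear hair cells with Cdh23 and is also transcribed in OPCs, changed by -0.56 with the combination (adjusted p = 0.277, 0.0389 with the block). Cdh23 changed by -0.087 (adjusted p = 0.533).

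All 3 neuroligins and 1 of 2 neurexins fell with the combination at day 4 as read from their main probe sets, where 20% of all genes were lower. Families of 3 and 2 genes are too small to set a share against that of all genes. The second probe set of Nlgn1 fell too (-0.49, adjusted p = 0.0113 from limma), and those of Nlgn2, Nlgn3 and Nrxn2 did not pass. Nlgn2 (1397705_at), the neuroligin of inhibitory synapses, had 5.88, 5.74 and 6.00 with the combination, 5.69, 5.80 and 5.59 with T3, 6.05, 6.32 and 5.85 with quetiapine and 6.71, 6.48 and 6.45 in control. It fell with each treatment, by 0.67 with the combination (adjusted p = 0.00206 from limma), 0.85 with T3 (standard error 0.124, adjusted p = 0.00168) and 0.47 with quetiapine (adjusted p = 0.0497). The call with quetiapine was kept only without quetiapine replicate 2, the other 11 arrays giving adjusted p = 0.0574 to 0.159 when left out. The second probe set of Nlgn2, 1368895_at, changed by -0.14 with the combination (adjusted p = 0.563) and -0.059 with T3 (adjusted p = 0.876).

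Nlgn1 (1369041_at), the neuroligin of excitatory synapses, read 7.90, 7.44 and 7.74 with the combination, 8.37, 7.71 and 7.67 with T3, 8.02, 7.99 and 7.63 with quetiapine and 8.75, 8.12 and 8.23 in control. Nlgn3 (1387409_x_at, a probe set of a kind that can pick up related transcripts), found at both kinds of synapse, read 7.18, 7.00 and 6.84 with the combination, 7.39, 6.98 and 7.24 with T3, 7.33, 7.40 and 7.14 with quetiapine and 7.65, 7.30 and 7.38 in control. No combination array reached control for either gene. With the combination Nlgn1 fell by 0.67 (adjusted p = 0.0374 from limma) and Nlgn3 by 0.44 (adjusted p = 0.03). Both calls were lost without combination replicate 2 or 3 or control replicate 1 or 3 (adjusted p = 0.0588 to 0.138 for Nlgn1 and 0.054 to 0.109 for Nlgn3). The second probe set of Nlgn3, 1375494_a_at, changed by -0.10 with the combination (adjusted p = 0.503). With the block Nlgn1 also passed with T3 (-0.45, adjusted p = 0.0298, 0.227 without it) and quetiapine (-0.49, adjusted p = 0.0278, 0.238 without it).

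Nrxn2 (1368875_a_at), a neurexin, had 9.85, 9.84 and 9.80 with the combination, 10.57, 10.17 and 10.09 with T3, 10.20, 10.17 and 9.81 with quetiapine and 11.07, 10.39 and 10.37 in control. The combination arrays were nearly alike and below all others but quetiapine replicate 3, and the fall was 0.78 (standard error 0.188, adjusted p = 0.00909 from limma). A second probe set, 1368876_a_at, changed by -0.077 (adjusted p = 0.716). With quetiapine the change of -0.55 passed with the block only (adjusted p = 0.121, 0.0138 with it). The axonal partner of Cntn1 at the paranode, Cntnap1 (1370185_at), had a low signal of 4.89, 4.80 and 4.81 with the combination, 4.92, 4.88 and 4.89 with T3, 4.79, 4.80 and 4.83 with quetiapine and 4.92, 5.10 and 5.14 in control. Its fall of 0.22 (adjusted p = 0.0385) was kept only without T3, combination or control replicate 1 (adjusted p = 0.0503 to 0.135 without the other 9 arrays). With quetiapine its change of -0.25 passed with the block only (adjusted p = 0.074, 0.04 with it). Another of that family, Cntnap5bl1, changed by 0.08 with the combination (adjusted p = 0.629) and had 5.07, 5.30 and 5.03 with the combination, 4.99, 5.07 and 4.98 with T3, 5.26, 5.04 and 4.99 with quetiapine and 5.03, 5.22 and 4.91 in control. In the same combination arrays the means of the OPC, astrocyte, neuronal and vascular and fibroblast markers were below all control arrays, as given above. That of the mature oligodendrocyte markers was above them.

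**Figure D3:**
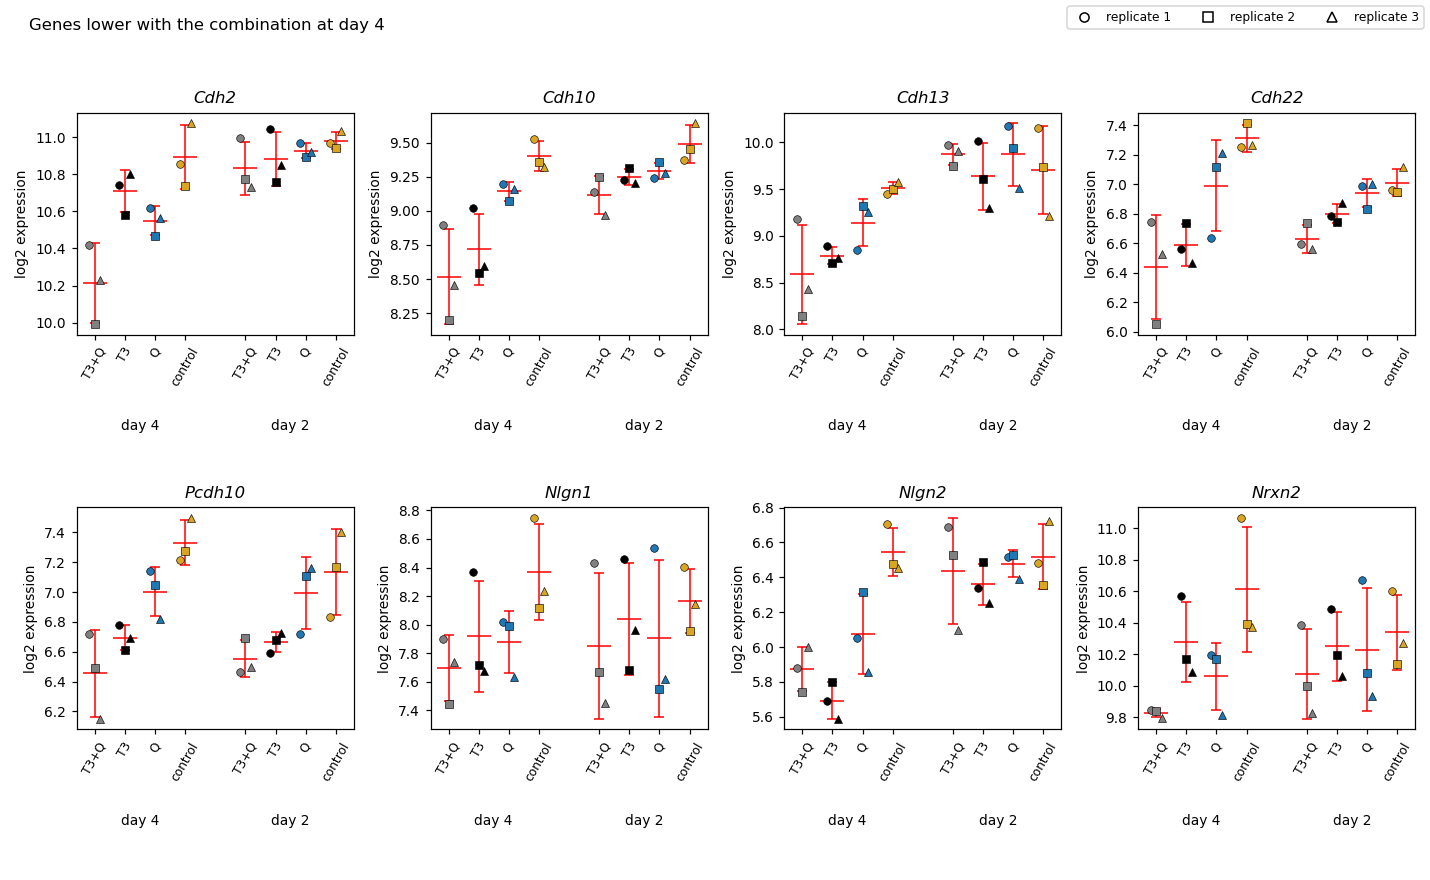
Log2 expression of 8 genes that fell with the combination at day 4, in each array, by treatment (T3+Q, the combination; Q, quetiapine) and day. Points are arrays with a shape for each replicate, and red bars show the mean and SD of 3 arrays. At day 4 the combination arrays lie below the control arrays in all 8 panels.

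The compounds were then set against each other. At day 4 Pcdh9 and Pcdh19 were higher and Cdh20 lower with quetiapine than with T3, 6.38% of the 47 against 3.31% of all genes (1.01% higher and 2.3% lower). At day 2 Cdh11 was higher, 2.13% against 2.15% of all genes, of which 0.696% were higher. With the block 5 members were called at day 4 (14.4% of all genes) and 3 at day 2 (12.1%). Those added at day 4 were Nrxn3, given below, and Cdh10 (0.42, adjusted p = 0.0281, 0.24 without the block). At day 2 they were Pcdh9 (0.58, adjusted p = 0.00417 and 0.0836) and Pcdh19 (0.83, adjusted p = 0.0001 and 0.2).

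Pcdh9 (1383783_at), a non-clustered protocadherin of the brain, was higher with quetiapine and with the combination at day 4. It read 11.03, 11.21 and 11.33 with the combination, 11.22, 11.10 and 11.26 with quetiapine, 10.67, 10.63 and 10.73 with T3 and 10.71, 10.68 and 10.61 in control. T3 and control overlapped, and both groups with quetiapine lay above them. The log2 change was 0.52 with quetiapine (standard error 0.0861, adjusted p = 0.00535 from limma), 0.52 with the combination (adjusted p = 0.00105) and 0.0091 with T3 (95% interval -0.18 to 0.20). Quetiapine minus T3 gave 0.52 (adjusted p = 0.0105, and 0.0547 to 0.0619 without T3 replicate 2 or quetiapine replicate 3).

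At day 2 Pcdh9 had 10.32, 10.19 and 9.86 with the combination, 10.71, 11.00 and 10.68 with quetiapine, 10.43, 10.18 and 10.04 with T3 and 10.81, 10.96 and 10.68 in control, so both groups with added T3 lay below both without. The combination lowered it by 0.69 (adjusted p = 0.0209 from limma, and 0.0553 to 0.0761 without control replicate 2 or combination replicate 2 or 3). The change with T3 was -0.60 (adjusted p = 0.0901, 0.00432 with the block). The second probe set of Pcdh9, 1397688_at, gave -0.61 with the combination at day 2 (adjusted p = 0.0604) and 0.35 at day 4 (adjusted p = 0.019).

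Pcdh19 (1382130_at), a protocadherin whose human gene on the X chromosome is known for an epilepsy of girls, was low in both groups with T3. At day 4 it had 6.97, 6.51 and 6.79 with the combination, 7.57, 7.31 and 7.65 with quetiapine, 6.93, 6.16 and 6.66 with T3 and 7.96, 7.28 and 7.51 in control. It fell by 1.00 with T3 (standard error 0.215, adjusted p = 0.0135 from limma, and 0.0555 without T3 replicate 2) and by 0.82 with the combination (adjusted p = 0.0138, and 0.0523 to 0.0611 without control replicate 1 or combination replicate 2). Quetiapine alone gave -0.072 (95% interval -0.55 to 0.40, adjusted p = 0.899). Quetiapine minus T3 was 0.92 (adjusted p = 0.0486, 0.000395 with the block), a call kept only without replicate 1 of control, T3 or the combination (adjusted p = 0.0524 to 0.188 without the other 9 arrays).

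Pcdh19 showed the same order at day 2, with 7.23, 6.51 and 6.92 in the combination, 8.07, 7.44 and 7.62 with quetiapine, 7.22, 6.42 and 7.00 with T3 and 8.10, 7.36 and 7.87 in control. The lowest array without added T3 was above the highest with it, although replicate 2 was the lowest of every group. The changes of -0.89 with the combination and -0.90 with T3 passed with the block (adjusted p = 4.85e-05 and 9.03e-05) and not without it (0.0773 and 0.17).

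Cdh20 (1393897_at), a type II cadherin, moved the other way and was higher with T3. At day 4 it read 8.26, 7.77 and 8.04 with the combination, 7.78, 7.61 and 7.48 with quetiapine, 8.43, 8.25 and 8.32 with T3 and 7.96, 7.51 and 7.82 in control. With T3 Cdh20 rose by 0.57, with a standard error of 0.142 (adjusted p = 0.0256 in limma, and 0.0606 to 0.0783 without any T3 replicate or control replicate 2 or 3). The combination gave 0.26 (adjusted p = 0.212, 0.043 with the block) and quetiapine -0.14 (adjusted p = 0.644). Quetiapine minus T3 was -0.72 (adjusted p = 0.0253, and 0.0594 to 0.107 without any T3 replicate or quetiapine replicate 2 or 3). At day 2 the combination raised Cdh20 by 0.63, with 8.67, 8.74 and 8.67 against 8.52, 8.36 and 8.27 with quetiapine, 8.67, 8.53 and 8.53 with T3 and 8.17, 8.25 and 7.77 in control (adjusted p = 0.0121, and 0.0506 without combination replicate 2), and T3 gave 0.51 (adjusted p = 0.0708, 0.0064 with the block).

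Cdh11 (1388936_at), a type II cadherin of mesenchymal and neural cells, differed at day 2. It had 10.31, 10.53 and 10.65 with the combination, 10.71, 10.94 and 11.04 with quetiapine, 10.06, 10.20 and 10.32 with T3 and 10.41, 10.50 and 10.42 in control. Quetiapine arrays were all above control and T3 arrays all below it. Quetiapine minus T3 was 0.70 (standard error 0.108, adjusted p = 0.00969 from limma, and 0.0523 without quetiapine replicate 2). Each change against control passed with the block only, 0.45 with quetiapine (adjusted p = 0.215, 0.00925 with it) and -0.25 with T3 (adjusted p = 0.377, 0.0462 with it). Another probe set of Cdh11, 1391146_at, passed without the block with quetiapine (0.72, adjusted p = 0.0383). By day 4 the combination arrays of Cdh11 spread over 10.81, 10.30 and 9.65, and quetiapine minus T3 was 0.44 (95% interval -0.16 to 1.03, adjusted p = 0.485).

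Nrxn3 (1368261_at), the other neurexin measured, was lower with quetiapine than with T3 at day 4 with the block only. Its values were 6.91, 7.06 and 7.17 with the combination, 6.48, 6.46 and 6.74 with quetiapine, 7.49, 7.01 and 7.43 with T3 and 6.81, 6.83 and 7.54 in control. All quetiapine arrays were below all others of that day. Quetiapine minus T3 was -0.75 (adjusted p = 0.0715 from limma, 0.00701 with the block), and quetiapine minus control -0.50 (adjusted p = 0.167, 0.0317 with it).

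**Figure D4:**
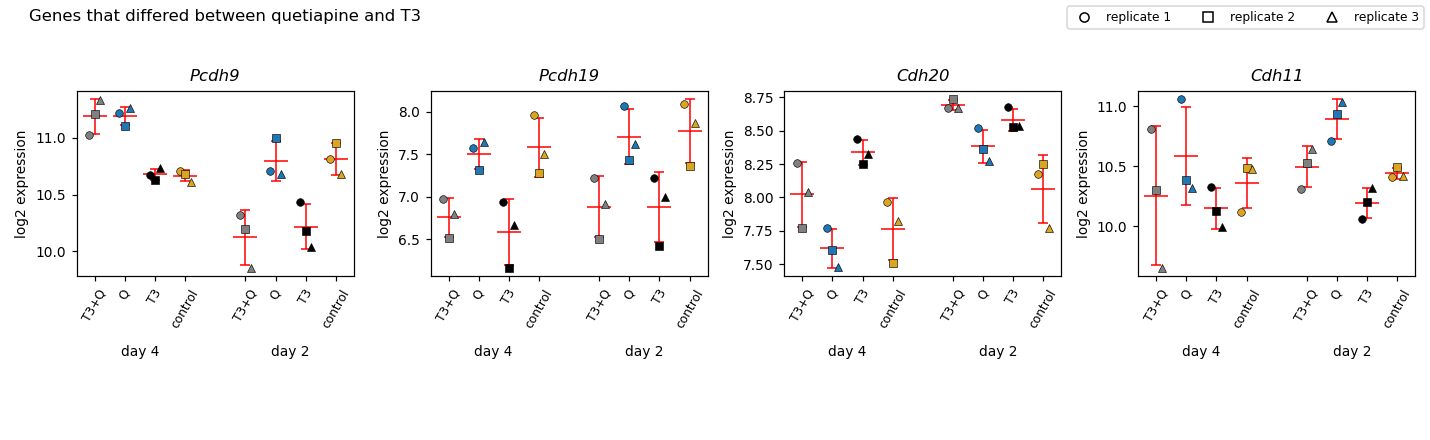
Log2 expression in each array of the 4 genes called between quetiapine and T3 at day 4 (Pcdh9, Pcdh19, Cdh20) or day 2 (Cdh11), by treatment (T3+Q, the combination; Q, quetiapine). Points are arrays with a shape for each replicate, and red bars show the mean and SD of 3 arrays. Pcdh19 is low in both groups with T3 at both days, and Pcdh9 is low there at day 2 only.

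At day 2 the combination raised 1 member and lowered 5, 12.8% of the 47 against 7.34% of all genes (3.12% higher and 4.22% lower). Beside Cdh20 and Pcdh9 these were Cdh10, Cdh22, Pcdh10 and the clustered protocadherin Pcdhb9. Cdh10 had 9.14, 9.25 and 8.97 with the combination, 9.23, 9.31 and 9.20 with T3, 9.24, 9.36 and 9.28 with quetiapine and 9.37, 9.45 and 9.65 in control, and Cdh22 had 6.59, 6.73 and 6.56 with the combination, 6.79, 6.74 and 6.87 with T3, 6.99, 6.83 and 7.00 with quetiapine and 6.96, 6.95 and 7.11 in control. Pcdh10 had 6.47, 6.69 and 6.50 with the combination, 6.60, 6.68 and 6.73 with T3, 6.72, 7.11 and 7.16 with quetiapine and 6.83, 7.17 and 7.40 in control. The T3 and quetiapine arrays of Cdh10 were below control as well. Pcdhb9 (1389653_at) had 7.63, 7.67 and 7.43 with the combination, 7.77, 7.59 and 7.77 with T3, 7.73, 7.83 and 7.75 with quetiapine and 7.96, 7.99 and 7.91 in control. In all 4 genes the combination arrays lay below the control arrays. The falls were 0.37 for Cdh10 (adjusted p = 0.0395 from limma), 0.38 for Cdh22 (adjusted p = 0.0212), 0.58 for Pcdh10 (adjusted p = 0.0473) and 0.37 for Pcdhb9 (adjusted p = 0.0232). In the second probe set of Cdh22 the combination (4.69, 4.65 and 4.50) overlapped control (4.56, 4.71 and 5.16). None of the 6 calls was kept throughout when each array in turn was left out, and without combination replicate 3 the number of calls was 1. With the block 11 members were called (27% of all genes). Beside Pcdh19 and Pcdh20, those added were Cdh6 (0.60, adjusted p = 0.00121, 0.127 without the block), Nrxn2 (-0.27, adjusted p = 0.0403 and 0.532) and Pcdh18 (-0.52, adjusted p = 0.0171 and 0.618). Cdh10 kept its call only without replicate 1 of control or replicate 2 of the combination (adjusted p = 0.0504 to 0.145 without the other 10 arrays), and Pcdh10 only without replicate 1 of control or quetiapine (0.0527 to 0.168). Cdh22 lost its call without combination replicate 1 or 3 or control replicate 3 (0.0578 to 0.0881), and Pcdhb9 without control replicate 2 or 3 or combination replicate 3 (0.0595 to 0.0838).

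With T3 or quetiapine alone no member passed at day 2 in limma, where 1.42% and 0.183% of all genes did. At an unadjusted p under 0.05 there were 8 with T3, 1 higher and 7 lower, and 3 with quetiapine, 2 higher and 1 lower. Shares of all genes at an unadjusted p under 0.05 were not counted, here or below. With the block T3 raised Cdh6 and Cdh20 and lowered Pcdh9, Pcdh10, Pcdh19 and Cdh11 (12.9% of all genes), and quetiapine raised Cdh11 (4.62%). Of these Cdh6 changed by 0.41 (adjusted p = 0.0191, 0.475 without the block) and Pcdh10 by -0.47 (adjusted p = 0.0145 and 0.204). The mean of the astrocyte markers at day 2 was 9.96 to 10.72 with the combination, 10.18 to 11.04 with T3, 10.10 to 10.68 with quetiapine and 10.28 to 11.26 in control, and these ranges overlapped. That of the mature oligodendrocyte markers was 9.89 to 10.69 with the combination, 9.85 to 10.45 with T3, 9.53 to 10.09 with quetiapine and 9.42 to 9.46 in control, with all treated arrays above control. The mean of the vascular and fibroblast markers with the combination (5.28 to 5.47) was just below control (5.47 to 5.54). The part of these markers in the changes of the members was not tested.

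Day 4 was then set against day 2 within each medium, in 1 fit over all arrays. With the combination 6 members were higher and 6 lower at day 4 (25.5% against 27.2% of all genes, 11.3% higher and 15.9% lower). With T3 3 were higher and 3 lower (12.8% against 8.34%, 3.36% higher and 4.97% lower), and with quetiapine 2 were higher and 1 lower (6.38% against 3.43%, 2.58% higher and 0.844% lower). In control none passed in limma (0.0281% of all genes), and 1 had an unadjusted p under 0.05. With the block 15 were called with the combination (39.1% of all genes), 9 with T3 (24.1%), 7 with quetiapine (14%) and none in control (4.42%). Pcdh17 was higher at day 4 with the combination (1.18, adjusted p = 3.68e-06), T3 (0.74, adjusted p = 0.00203) and quetiapine (0.61, adjusted p = 0.0102, and 0.0627 to 0.069 without quetiapine replicate 1 of day 2 or 3 of day 4). In control its change was -0.20 (95% interval -0.46 to 0.065). Cntn1 was higher at day 4 with the combination by 1.32 (adjusted p = 0.000595), its day 2 values being 9.57, 9.55 and 10.18 with the combination and 9.46, 9.42 and 9.67 in control.

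Cdh20 and Cdh13 were lower at day 4. Cdh20 fell by 0.67 with the combination (adjusted p = 0.00124 from limma) and 0.76 with quetiapine (adjusted p = 0.00306), and changed by -0.30 in control (adjusted p = 0.565). Cdh13 fell by 1.29 with the combination (adjusted p = 0.000848) and 0.85 with T3 (adjusted p = 0.046, lost on leaving out any 1 of 16 of the 24 arrays, with 0.0507 to 0.227). Also lower at day 4 with the combination were Cdh2, Cdh10, Nlgn2 and Nlgn3, by 0.53 to 0.62. Also higher were Pcdh9, Cdh6, Pcdhb9 and Cdh15, by 0.28 to 1.07. Of the 12 calls with the combination 8 were kept whichever array was left out. Those of Cdh15, Cdh6, Nlgn3 and Pcdhb9 were lost without 2 to 4 arrays each, all of them combination arrays, with adjusted p = 0.0691 to 0.0853, 0.0799 to 0.122, 0.0571 to 0.159 and 0.0714 to 0.0977.

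With T3 the remaining calls between the days were Nlgn2 and Cdh10, lower by 0.67 (adjusted p = 0.00837 from limma) and 0.53 (adjusted p = 0.0306), and Pcdh9 and Cdh15, higher by 0.46 (adjusted p = 0.0298) and 0.29 (adjusted p = 0.048). The call of Cdh10 was lost without T3 replicate 1, 2 or 3 of day 2 or 2 or 3 of day 4 (0.0511 to 0.169), that of Pcdh9 without T3 replicate 2 or 3 of either day (0.0929 to 0.105), and that of Cdh15 on leaving out any 1 of 18 of the 24 arrays (0.0519 to 0.246). With quetiapine Cdh15 was higher at day 4 by 0.39 (adjusted p = 0.0146, and 0.0721 to 0.0926 without quetiapine replicate 1 or 2 of day 2 or 3 of day 4).

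Whether a treatment changed a gene differently at the days was tested as the effect against control at day 4 minus that at day 2. With the combination 3 members had a higher and 1 a lower effect at day 4 (8.51% against 8.17% of all genes, 4.91% higher and 3.26% lower), namely Cntn1, Pcdh17, Pcdh9 and Cdh2. For Cntn1 the effect was 1.78 at day 4 and 0.25 at day 2, and for Pcdh17 1.38 and 0.011. Pcdh9 changed direction, with 0.52 at day 4 and -0.69 at day 2, and Cdh2 had -0.68 and -0.15. The call for Cdh2 (adjusted p = 0.0424) was lost on leaving out any 1 of 13 of the 24 arrays (0.0506 to 0.133), every control array but replicate 2 of day 4 and every combination array but replicates 1 of day 4 and 3 of day 2 among them, and the other 3 calls were kept whichever array was left out. With T3 (0.0563% of all genes) and quetiapine (0.134%) no member passed in limma, while 8 and 6 had an unadjusted p under 0.05. With the block 8 were called with the combination (22% of all genes), 1 with T3 (1.37%) and 1 with quetiapine (1.41%).

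The combination was compared with each compound alone. Against T3 at day 4, 1 member was higher (2.13% against 2.33% of all genes, 1.29% higher), namely Pcdh9, by 0.51 (adjusted p = 0.0166 from limma, and 0.0585 to 0.0854 without replicate 2 or 3 of either group). Against quetiapine, 2 were higher and 2 lower (8.51% against 9.24% of all genes, 4.36% higher and 4.87% lower). Cntn1 was higher by 0.82 (adjusted p = 0.0429) and Pcdh17 by 0.42 (adjusted p = 0.0396). Cdh10 was lower by 0.62 (adjusted p = 0.047) and Pcdh10 by 0.55 (adjusted p = 0.0404). Each of these 4 calls was lost on leaving out any 1 of 8 to 10 of the 12 arrays, with adjusted p = 0.0512 to 0.157 for Cntn1, 0.0501 to 0.141 for Pcdh17, 0.054 to 0.179 for Cdh10 and 0.0502 to 0.121 for Pcdh10, and all 4 passed with the block. The block gave 6 calls against T3 (14.9% of all genes) and 10 against quetiapine (23.8%). Among the arrays whose loss ended the calls of all 4 were quetiapine replicates 2 and 3 and combination replicates 2 and 3. At day 2 no member passed against T3 (0.0281%) or quetiapine (1.32%) by limma, while 3 and 9 had an unadjusted p under 0.05. With the block none passed against T3 (1.35% of all genes) and 6 against quetiapine (10%), Cdh6 higher and Pcdh9, Pcdh10, Pcdh19, Cdh11 and Cdh22 lower.

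The change with both compounds was also set against the sum of the single changes on the log2 scale. No member passed limma's test of this interaction at day 4 (0.0492% of all genes) or day 2 (0%), and none with the block (0.366% and 0% of all genes). Without adjustment 4 members had a p under 0.05 at day 4 and 1 at day 2. For Cntn1 the interaction at day 4 was -0.39 (95% interval -1.05 to 0.28), for Pcdh17 -0.48 (-0.82 to -0.14) and for Cdh6 -0.063 (-1.02 to 0.89). The intervals of Cntn1 and Cdh6 are wide beside their changes with the single compounds, and with 3 arrays a group a departure from the sum within them was not detectable.

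Several members differed between the replicates. As a mean over the 8 groups, Pcdh18 lay 0.74 above the group mean in replicate 3 and 0.62 below it in replicate 1, and replicate 3 was the highest in all 8 groups. Pcdh20, Cntn6, Nlgn1 and Nrxn2 were highest in replicate 1 in all 8 groups, by 0.56, 0.50, 0.38 and 0.27 above the group means, and Pcdh15 in 7 of 8. Cntnap2, the contactin-associated protein that gathers potassium channels beside the paranode, was highest in replicate 3 in 7 of 8. The range between replicates was over 0.5 for 7 members and had a median of 0.14 over all 47, and it was not computed for all genes. For Pcdh18 it was 1.36, more than its change with any treatment at either day.

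**Figure D5:**
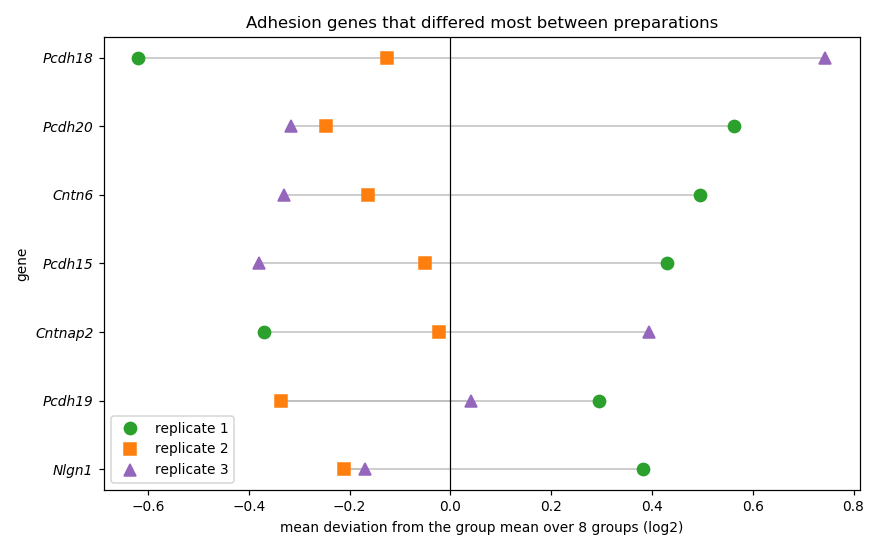
Mean deviation of each replicate (called a preparation in the title) from the group mean over the 8 groups, on the log2 scale, for the 7 members with a range over 0.5. Each line is a gene and each symbol 1 replicate. Pcdh18 spans the widest range, and Pcdh20, Cntn6 and Nlgn1 are highest in replicate 1.

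Probe sets of the same gene followed each other to differing degrees. Over the 24 arrays, a second probe set correlated with the main one at r = 0.995 and 0.981 for Cdh13, 0.979 and 0.984 for Pcdh17, 0.97 for Pcdh20, 0.936 for Nlgn1, 0.901 for Cdh11, 0.858 for Pcdh9 and 0.809 for Cdh2. The correlation was weaker for others, with r = -0.149 for 1378271_at of Cdh2, 0.293 for 1391088_at of Cdh11 and 0.518 for Cdh22. It was 0.398 for Nrxn2, 0.381 for Nlgn2 and 0.584 for Nlgn3. These points share arrays and are given as a description. Pcdhb12, not called from its main probe set, was higher with the combination at day 4 from 1385327_at (0.41, adjusted p = 0.00934 from limma) and 0.10 from the main one (adjusted p = 0.55). The clustered protocadherins have near-identical copies, and how far their probe sets share signal was not tested.

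Binding partners and relatives of these proteins were taken from 3 lists. Of 17 catenins and cadherin-related proteins, 1 was higher and 7 lower with the combination at day 4. With T3 1 was higher and 4 lower, and with quetiapine 1 was higher and 2 lower. Of all genes 35.1% were called with the combination (15.2% higher and 20% lower), 14.7% with T3 and 7.25% with quetiapine, and these shares are the background of all 3 lists. With the block 3 were higher and 8 lower with the combination, 2 were higher and 6 lower with T3 and 2 were higher and 7 lower with quetiapine. Jup, plakoglobin, rose by 1.52 with the combination (adjusted p = 0.000301 from limma), while the delta-catenin Ctnnd2 changed by -1.03 (adjusted p = 0.00112), the large cadherin Dchs1 by -0.98 (adjusted p = 0.000562) and the neural alpha-catenin Ctnna2 by -0.94 (adjusted p = 0.000135). The median log2 change of the list with the combination was -0.15.

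Of 13 contactin partners and related proteins, 4 were higher and 6 lower with the combination, 3 were higher and 2 lower with T3 and 3 were higher and 2 lower with quetiapine, with a median of -0.40 for the combination. With the block 4 were higher and 6 lower with the combination, 4 were higher and 4 lower with T3 and 4 were higher and 3 lower with quetiapine. The adhesion protein Mcam rose by 3.05 (adjusted p = 1.22e-06 from limma) and the amyloid precursor-like Aplp1 by 1.74 (adjusted p = 0.000161). The cytoskeletal linker Epb41l3 changed by -1.09 (adjusted p = 0.0153) and the adhesion protein Nrcam by -0.97 (adjusted p = 6.32e-05). Named after their values were seen, neurofascin (Nfasc), which binds Cntn1 across the paranode, rose by 0.48 (adjusted p = 0.0117), and Ptprz1, which is also in the list of OPC markers, changed by -0.89 (adjusted p = 9.10e-05).

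Of 20 ligands and scaffolds of neurexins and neuroligins, 4 were higher and 4 lower with the combination, 1 was higher and 1 lower with T3 and 1 was higher and 0 lower with quetiapine, with a median of -0.077 for the combination. With the block 5 were higher and 6 lower with the combination, 2 were higher and 3 lower with T3 and 1 was higher and 1 lower with quetiapine. The scaffold Dlg1 rose by 1.44 (adjusted p = 2.01e-07 from limma) and Apba1, which binds the neurexin scaffold Cask, by 0.95 (adjusted p = 0.0135). The latrophilin Adgrl2 changed by -0.93 (adjusted p = 0.0081) and Cask by -0.88 (adjusted p = 0.0176).

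Over the comparisons of a treatment with control and of quetiapine with T3 at both days, 8 in number, 21 members passed at least once and 26 never did. For all genes neither this share nor its split by mean signal was counted. Pcdh15, Pcdh18, Pcdh20, Nrxn3 and Pcdha13 of the 26 passed with the block. Pcdh20 did so with the combination at day 2 (-0.36, adjusted p = 0.00781 from limma with the block, 0.518 without), and Pcdha13 with the combination at day 4 (0.32, adjusted p = 0.0297 and 0.118). The other 21 had log2 changes of -0.43 to 0.32 in the 8 comparisons, and 20 of them had a mean signal below the median of all probe sets, against 4 of the 21 called members. They were the epithelial cadherins Cdh1 and Cdh3, the neuronal Cdh8 and Cdh12, Cdh16 and Cdh17 of kidney and gut and Cdh23, the clustered Pcdha12, Pcdhb6, Pcdhb12, Pcdhb17, Pcdhb19, Pcdhb21 and Pcdhb22, the contactins Cntn2 to Cntn6, and Cntnap2 and Cntnap5bl1. Cntn2, the axonal contactin that pairs with Cntnap2, changed by 0.18 with the combination at day 4 (95% interval -0.11 to 0.46) at a mean signal of 4.82.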

How the data were processed

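RNA from 24 cultures was hybridised to 1-colour Affymetrix rat arrays, 1 culture an array. The authors deposited RMA-normalized log2 values for 31099 probe sets, according to the submitters' processing notes and the values themselves. RMA corrects background, makes the arrays' distributions alike by quantiles and summarises probes, so a change shared by most genes would be removed, and low signals are compressed. Versions, settings and a genome build are not given in the sources used here. GEO lists the animals as Rattus rattus, and the study's methods name Sprague Dawley rats.

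After 57 control probe sets were left out, 31042 were tested with limma 3.58.1 in R 4.3.3 (lmFit, contrasts, eBayes, Benjamini-Hochberg). Each day was fitted alone over its 12 arrays, and the days were compared in 1 fit over all 24. Symbols came from the platform annotation, with 1 symbol for 20826 probe sets, several for 436 and none for 9780. Arrays give no read depth, and precision is limited by their number, 3 a group. The fit without the block was run on simulated data with changes of known size, for T3 against control at day 2. The simulated arrays were independent, so this run cannot speak to the correlation of arrays with the same replicate number.

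The deposited design states that each of the 3 biological replicates supplied a sample of every condition, so the numbers pair the arrays. Deviations from group means correlated at 0.430 to 0.777 between same-numbered arrays of day 2 and 0.309 to 0.690 at day 4. Calls come from the fit without the block. The other is shown where calls against control or between quetiapine and T3 differ, and where counts of members or of partners differ.

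The members and all gene lists were chosen with earlier results of these data known. Values by array were given for members called against control or between quetiapine and T3, at the day of the call, and for the member with the highest mean signal of each family (Cdh, Pcdh, Cntn, Cntnap, Nrxn, Nlgn). Those of Pcdh18 and Nrxn3 were added after they were seen. Of each partner list up to 4 called genes with the largest change at day 4 were named. Alternatives were the block, centring arrays on their medians, leaving out dim probe sets, averaging a gene's probe sets, eBayes with trend and robust settings, 1 fit over all arrays, a fold limit, and leaving out each array. No sequences were printed.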

Additional observations from a re-analysis of the deposited data

Results flagged for a closer look

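For 4 genes the effect of the combination differed between day 4 and day 2 in limma's test of that difference (effect at day 4 minus effect at day 2, on the log2 scale). Pcdh17 differed by 1.37 (standard error 0.177, adjusted p = 0.000228), Cntn1 by 1.53 (standard error 0.341, adjusted p = 0.0106), Pcdh9 by 1.21 (standard error 0.171, adjusted p = 0.000451) and Cdh2 by -0.53 (standard error 0.152, adjusted p = 0.0424). The call for Cdh2 was lost on leaving out any 1 of 13 of the 24 arrays (adjusted p = 0.0506 to 0.133). Pcdh9 was the gene of the 4 whose effect had opposite signs at the days. The mean of the mature oligodendrocyte markers with the combination was 11.89 to 12.62 at day 4 and 9.89 to 10.69 at day 2, and in control 10.00 to 10.30 at day 4 and 9.42 to 9.46 at day 2. Their part in these differences was not tested.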

How the results depend on the processing

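Of the 70 calls of single members, none changed sign in any setting, and 30 were kept whichever array was left out. Centring the arrays lost 8 calls, the mean of a gene's probe sets 5, trend and robust settings 3 and the fold limit 25. The fit over all arrays, run for the comparisons within a day, kept 39 and lost 6. All 70 were kept with the replicate block, which pairs the arrays by replicate number. The block moved the number of members called to 6 for T3 against control at day 2 and 12 at day 4 for quetiapine against control, where it was 1 at day 2. It gave 11 for the combination against control at day 2, 3 and 5 for quetiapine against T3 at days 2 and 4, 6 for the combination against T3 at day 4, and 6 and 10 for the combination against quetiapine at days 2 and 4. It gave 7 for quetiapine between the days, and for the effect at day 4 minus that at day 2 it gave 8 for the combination, 1 for T3 and 1 for quetiapine. In the remaining comparisons the count with the block was within 1.5 times that without it. For the combination against T3 at day 4 (1 call) other settings gave 2 (centred arrays), 2 (probe sets with a mean under 5 left out), 3 (mean of a gene's probe sets), 2 (eBayes with trend and robust), 3 (1 fit over all arrays) and 0 (fold limit of 1.5). For quetiapine against control at day 4 (5 calls) there were 3 with trend and robust and 2 with the fold limit. The fit over all arrays gave 1 for T3 against control and 1 for the combination against quetiapine at day 2. The fold limit left 2 for the combination against control at day 2, 2 for the combination against quetiapine at day 4 and 3 for T3 between the days.

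Without single arrays the counts ranged from 12 to 17 for the combination against control at day 4 and from 1 to 6 at day 2, from 3 to 9 for T3 and from 2 to 4 for quetiapine against control at day 4. For quetiapine against T3 they were 0 to 3 at day 4 and 0 to 1 at day 2. For the combination at day 4 they were 0 to 3 against T3 and 0 to 7 against quetiapine. Between the days they were 8 to 12 for the combination, 2 to 7 for T3 and 1 to 4 for quetiapine, and for the difference of effects 3 to 8, 0 to 1 and 0 to 1. Counts moved by over 1.5 times with these arrays left out. Against control they were any combination replicate or control replicate 2 or 3 for the combination at day 2, T3 replicate 2 or 3 or control replicate 2 or 3 for T3 at day 4, and for quetiapine at day 4 any array but control replicate 1 and quetiapine replicate 2. For quetiapine against T3 they were quetiapine replicate 2 at day 2 and replicates 2 and 3 of either group at day 4. For the combination against T3 they were any combination replicate, T3 replicates 2 and 3 and control replicates 1 and 3, and against quetiapine any combination or quetiapine replicate, T3 replicates 2 and 3 and control replicates 2 and 3. Between the days they were replicates 1 and 2 of day 2 and 2 and 3 of day 4 for T3, and replicate 1 of day 2 and 3 of day 4 for quetiapine. For the difference of effects, combination replicate 1 of day 4 left out gave the 8 calls, T3 replicate 3 of day 2 left out gave 1 call for T3 and 1 for quetiapine, and control or combination replicate 1 of day 4 or combination replicate 3 of day 2 left out gave 1 for T3. The cause of these shifts was not tested.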
